A study of Mus musculus with 6 samples.

Results

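The genes described here are 10 immediate early genes that neurons switch on shortly after firing: Fos, Fosb, Junb, Egr1, Egr3, Arc, Nr4a1, Nr4a2, Nr4a3 and Npas4. They were chosen by name, with no threshold on their values but with earlier results of these data known. Matching by NCBI gene identifier found 10 of the 36528 genes listed in each count table. RNA was sequenced from lumbar dorsal root ganglia (L4 to L6, with 6 ganglia pooled from 1 mouse per library) of female mice 12 to 18 weeks old. All 6 mice carried the genotype Scn9a loxP/loxP, with floxed alleles of the gene for the sodium channel Nav1.7. The 3 knockout mice were pCAAG.Cre.ER Pos, carrying an inducible Cre recombinase, and the 3 control littermates were pCAAG.Cre.ER Neg. CreER is activated by tamoxifen, and the labels used here give neither the dose nor the interval between induction and dissection. The series title calls the knockout global, so Cre was not restricted to sensory neurons.

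Immediate early genes need no new protein synthesis for their transcription. Calcium entry and the ERK kinases act on factors already bound at their promoters, chiefly CREB, which binds cAMP response elements, and serum response factor, which binds the CArG box. Most of the genes encode transcription factors, and their short-lived RNA makes them markers of recent stimulation. In the spinal cord Fos is a widely used sign of nociceptive input. Apart from Npas4, which answers mainly to calcium entry in neurons, they are also switched on in glia, vessels and immune cells by growth factors, injury and the handling of tissue. Whole ganglia hold all of these cells, so fewer cells of a type and less RNA per cell cannot be told apart here.

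The libraries held 40237131 to 63332040 counts. The targeted gene Scn9a had 620, 565 and 574 CPM (counts scaled to library size, with TMM factors) in CreER-positive mice, against 635, 611 and 557 CPM in controls. That gene-level count includes reads outside the floxed part and does not check the genotype. Sensory neuron markers summed to between 10560 and 14080 CPM in CreER-positive libraries and between 10850 and 12420 CPM in controls, and no marker of any cell type listed had a count of 0 in any library. Skeletal muscle markers without Pvalb, which proprioceptive neurons also express, summed to 64.9 CPM in control replicate 2, against 5.79 to 9.03 CPM in the other 5 libraries. CreER-positive replicate 3 stood apart in several lists. Its macrophage markers summed to 151 CPM, against 77.8 to 102.5 CPM in the others, its red blood cell markers to 82.5 CPM, against 32.5 to 42.9 CPM, and its fibroblast markers to 1520 CPM, against 881 to 1163 CPM. Its endothelial (201.2 CPM) and satellite glia (2964 CPM) sums were also the highest of the 6 libraries, and its sensory neuron sum (10560 CPM) was the lowest.

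None of the 10 genes passed edgeR's quasi-likelihood test of CreER-positive against control ganglia, at a Benjamini-Hochberg adjusted p of 0.05 over all 22043 tested genes. All 10 passed the filter on low counts. Over all tested genes 0.726% were called. DESeq2 and limma-voom, which called 2.27% and 0.721% of the genes they tested, called 0 of the 10 as well, and 1, Npas4, had an unadjusted edgeR p under 0.05, a level that 10.6% of all tested genes reached. The median log2 fold change of the 10 genes was -0.11, beside 0.00 over all tested genes, with 3 estimates above 0 and 7 below. That median was 0.00 without CreER-positive replicate 1 and 0.02 without control replicate 2. The plot of counts per library shows that for 9 of the 10 genes the groups overlapped. Over all tested genes 15.9% had groups that did not overlap.

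**Figure D1:**
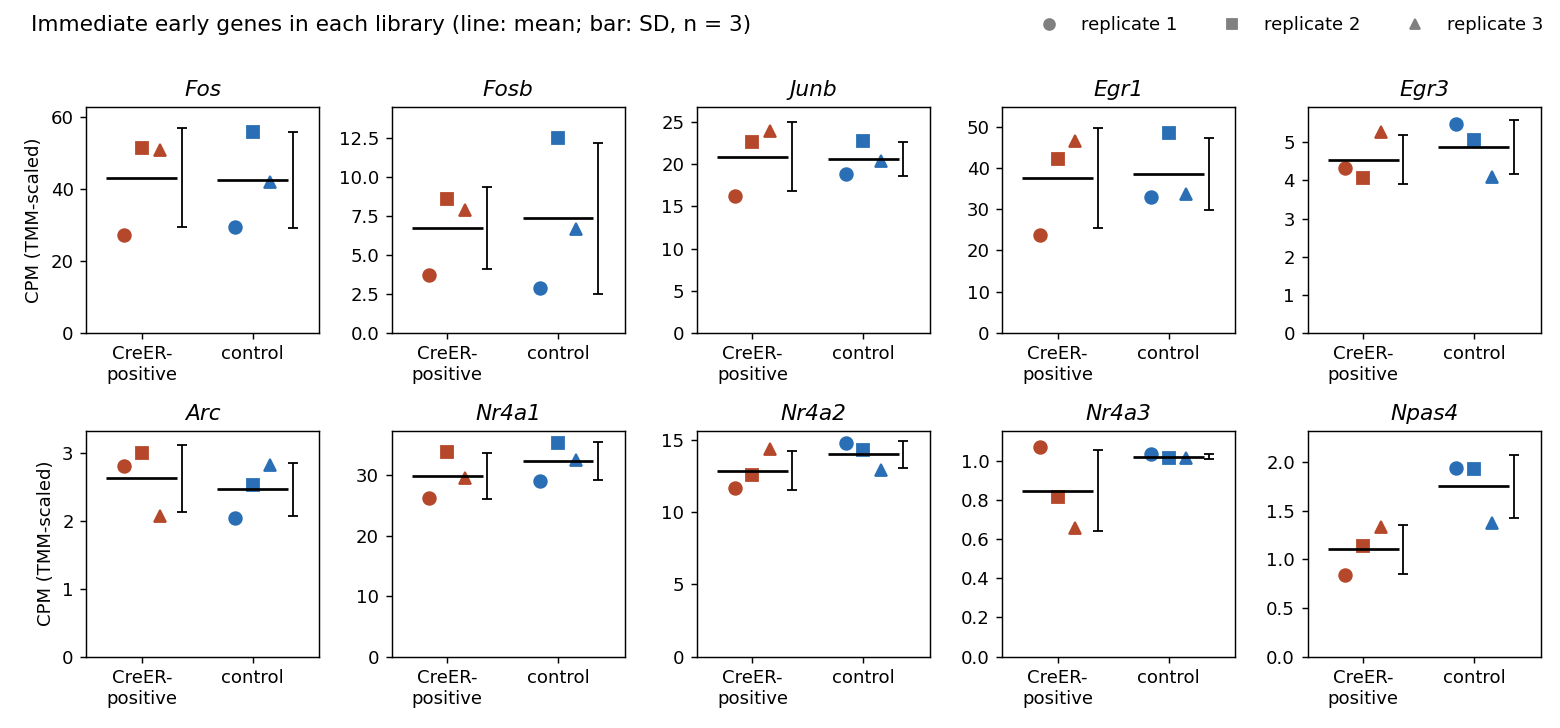
CPM (TMM-scaled) of the 10 immediate early genes in each of the 6 libraries, CreER-positive on the left and control on the right, with a line at the group mean and a bar of 1 SD (n = 3). Replicate 1 of both groups sits lowest for Fos, Fosb, Junb, Egr1 and Nr4a1, an order that 9.13% of all tested genes had. Npas4 is the only gene of the 10 whose groups do not overlap, beside 15.9% of all tested genes.

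Promoters are shown for Fos, Fosb, Junb and Nr4a1, which varied together between animals, and for Npas4, which had the largest estimated difference between groups of the 10. They are the 250 bases before the RefSeq start site in GRCm38.p6, read 5′ to 3′ on the gene's strand. Capitals mark the core of the cAMP response element, TGACG or its reverse complement CGTCA. Fos lies at chr12:85473640-85473889 on the plus strand, Fosb at chr7:19310046-19310295 on the minus strand and Junb at chr8:84978749-84978998 on the minus strand. Nr4a1 lies at chr15:101266596-101266845 on the plus strand and Npas4 at chr19:4989972-4990221 on the minus strand. The windows of Nr4a1 and Npas4 precede start sites that lie inside the gene's longest annotated span, so each window is within the annotated gene, and the Fosb window overlaps the end of its RefSeq span.
Fos: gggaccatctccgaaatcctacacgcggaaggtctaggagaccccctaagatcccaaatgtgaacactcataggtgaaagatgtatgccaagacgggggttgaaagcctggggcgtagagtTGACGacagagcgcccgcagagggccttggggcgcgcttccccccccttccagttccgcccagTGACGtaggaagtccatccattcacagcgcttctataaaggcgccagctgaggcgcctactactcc
Fosb: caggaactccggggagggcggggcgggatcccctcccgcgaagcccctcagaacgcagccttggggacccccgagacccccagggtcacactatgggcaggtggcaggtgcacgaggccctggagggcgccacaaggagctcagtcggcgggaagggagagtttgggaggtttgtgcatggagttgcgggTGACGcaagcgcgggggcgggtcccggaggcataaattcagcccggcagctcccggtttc
Junb: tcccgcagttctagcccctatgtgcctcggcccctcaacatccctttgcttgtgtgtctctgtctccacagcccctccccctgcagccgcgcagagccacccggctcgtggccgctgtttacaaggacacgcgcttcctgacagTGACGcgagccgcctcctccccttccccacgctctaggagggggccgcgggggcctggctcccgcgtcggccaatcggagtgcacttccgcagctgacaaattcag
Nr4a1: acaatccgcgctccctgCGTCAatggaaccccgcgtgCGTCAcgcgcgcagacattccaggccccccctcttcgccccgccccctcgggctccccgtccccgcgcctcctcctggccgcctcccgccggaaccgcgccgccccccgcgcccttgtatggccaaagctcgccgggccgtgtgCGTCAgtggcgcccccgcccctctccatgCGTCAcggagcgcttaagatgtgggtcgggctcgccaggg
Npas4: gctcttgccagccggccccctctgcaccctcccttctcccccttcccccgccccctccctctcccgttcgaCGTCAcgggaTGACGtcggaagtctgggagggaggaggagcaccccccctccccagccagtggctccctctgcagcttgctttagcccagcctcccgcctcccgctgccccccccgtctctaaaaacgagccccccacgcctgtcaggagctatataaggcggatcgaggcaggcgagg

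Both strands were searched. Each of the 7 members with a promoter sequence held at least 1 core element, against 17.8% of 32851 promoter windows of the same length: 2 in Fos, 1 in Fosb, 1 in Junb, 2 in Npas4 and 4 each in Nr4a1, Nr4a2 and Nr4a3. None held the full palindrome TGACGTCA, which 1.55% of all windows hold, and none held the CArG box within these 250 bases (1.47% of all windows). The serum response element of Fos is known to lie further upstream than this window. In Fos a core element lies at bases -66 to -62 and the TATA box, TATAAA (12.4% of all windows), at -33 to -28 before the start site. In Npas4 the 2 core elements lie at -179 to -175 and -169 to -165. Promoters of Egr1, Egr3 and Arc are not shown. A match to these letters is a description of the sequence.

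Fos encodes the DNA-binding partner of Jun proteins in the AP-1 factor. It had 27.2, 51.3 and 50.8 CPM in CreER-positive replicates 1 to 3, against 29.5, 55.9 and 41.9 CPM in control replicates 1 to 3. Each group had 1 low library, and the ranges covered each other almost entirely. The means were 43.1 ± 13.8 CPM in CreER-positive mice and 42.5 ± 13.2 CPM in controls (SD, n = 3 each). The log2 fold change was 0.02 ± 0.26 (SE; edgeR adjusted p 0.990), with a 95% interval from -0.57 to 0.60. In linear terms that interval runs from 0.676-fold to 1.52-fold, and a difference within these bounds was not detectable between these animals.

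Fosb, whose truncated splice form builds up under repeated stimulation, was the most variable of the 10 genes. It had 3.70, 8.59 and 7.91 CPM in CreER-positive mice, against 2.88, 12.5 and 6.67 CPM in controls. The lowest and the highest of the 6 values both belonged to control mice. Its log2 fold change was -0.15 ± 0.45 (edgeR adjusted p 0.948) and its interval, from -1.15 to 0.86, was the widest of the 10. It was 0.47 without control replicate 2, the mouse with the highest value, and -0.51 without control replicate 1, the mouse with the lowest.

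Junb encodes a Jun-family partner of Fos that often restrains AP-1. It had 16.2, 22.6 and 23.9 CPM in CreER-positive mice, against 18.8, 22.8 and 20.3 CPM in controls, and the control values lay inside the CreER-positive range. Its log2 fold change was 0.02 ± 0.14 (edgeR adjusted p 0.982). Its sign and that of Fos turned in some of the alternative analyses.

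Egr1 and Egr3 encode zinc finger factors, and Egr3 is also known for its part in muscle spindle development. Egr1 had 23.7, 42.2 and 46.6 CPM in CreER-positive mice, against 33.1, 48.6 and 33.8 CPM in controls, a log2 fold change of -0.04 ± 0.23 (edgeR adjusted p 0.976). The lowest value came from CreER-positive replicate 1, and without it the estimate was 0.21. Egr3 had 4.34, 4.05 and 5.26 CPM in CreER-positive mice, against 5.49, 5.07 and 4.10 CPM in controls, with overlapping groups. Its log2 fold change was -0.10 ± 0.14 (edgeR adjusted p 0.871).

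Arc, the effector gene of the 10, encodes a capsid-like protein that moves AMPA-type glutamate receptors from synapses. It had 2.80, 2.99 and 2.07 CPM in CreER-positive mice, against 2.04, 2.53 and 2.82 CPM in controls. Both groups spanned nearly the same range, and the log2 fold change was 0.08 ± 0.18 (edgeR adjusted p 0.919). Arc rested on 83 to 184 counts per library.

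Nr4a1, Nr4a2 and Nr4a3 encode orphan nuclear receptors, also called Nur77, Nurr1 and Nor1. Nr4a1 had 26.2, 33.8 and 29.5 CPM in CreER-positive mice, against 29.1, 35.3 and 32.6 CPM in controls. Nr4a2 had 11.7, 12.6 and 14.4 CPM in CreER-positive mice, against 14.8, 14.3 and 12.9 CPM in controls. The means were lower in CreER-positive mice for both genes while the groups overlapped. The log2 fold changes were -0.12 ± 0.10 for Nr4a1 and -0.12 ± 0.09 for Nr4a2 (edgeR adjusted p 0.763 and 0.726). These were the narrowest intervals of the 10 genes. For Nr4a1 the interval ran from 0.788-fold to 1.08-fold and for Nr4a2 from 0.796-fold to 1.06-fold.

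Nr4a3 was the least abundant of the 10. It had 1.07, 0.814 and 0.658 CPM in CreER-positive mice, from 64, 50 and 35 counts, against 1.03, 1.01 and 1.01 CPM in controls. The 3 control values were almost equal, while CreER-positive replicate 1 was the highest library and replicate 3 the lowest. The log2 fold change was -0.26 ± 0.20 (edgeR adjusted p 0.740). The exact Poisson 95% interval of replicate 3, which covers counting error only, ran from 0.458 to 0.915 CPM.

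Npas4 encodes a neuronal factor that dimerizes with ARNT proteins and regulates genes of synapses. It had 0.834, 1.14 and 1.33 CPM in CreER-positive mice, from 50, 70 and 71 counts. In controls it had 1.94, 1.93 and 1.38 CPM, from 79, 107 and 87 counts. Every CreER-positive value lay below every control value, although CreER-positive replicate 3 and control replicate 3 were close. Over all tested genes, 15.9% had groups that did not overlap, 9.31% in this direction. The means were 1.10 ± 0.252 CPM in CreER-positive mice and 1.75 ± 0.324 CPM in controls (SD, n = 3 each), a log2 fold change of -0.66 ± 0.22 with an interval from -1.14 to -0.17. The edgeR adjusted p was 0.295 (unadjusted 0.0133), so Npas4 did not pass over all genes. The adjusted p ranged from 0.0943, without CreER-positive replicate 3, to 0.739, without control replicate 2, over the alternatives. The width in the files is also larger than the gene as commonly drawn, at 17577 bases, against 5962 bases from start to end in GENCODE. Whether reads from the rest of that width were counted is not known.

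**Figure D2:**
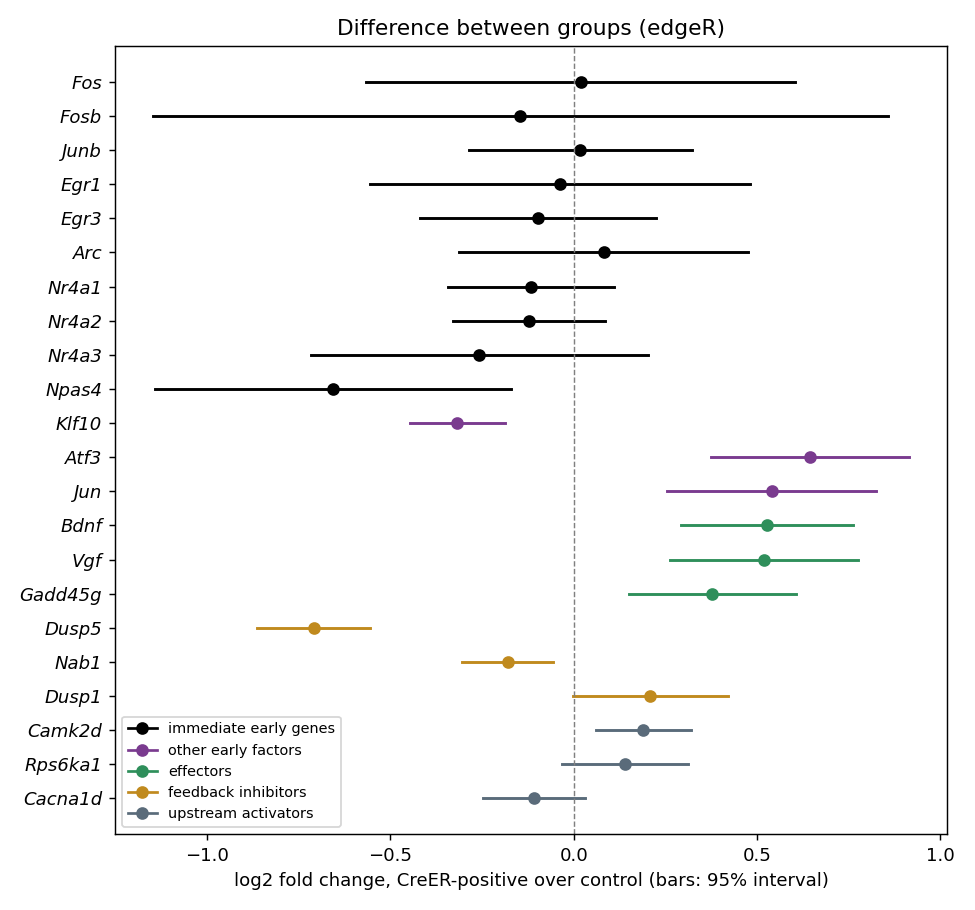
Log2 fold change of CreER-positive over control (x axis) with 95% intervals from edgeR for the 10 immediate early genes and for the 3 genes with the smallest p in each of 4 related lists. Among the 10 only the Npas4 interval leaves out 0, at an edgeR adjusted p of 0.295. The Dusp5 and Klf10 intervals lie wholly below 0, and both genes passed the adjusted test. The intervals of Atf3, Jun, Bdnf, Vgf, Gadd45g and Camk2d lie wholly above 0 and that of Nab1 wholly below, and none of these genes passed.

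Per length, the order of the genes depended on which length was used. By the authors' RPKM, which divides the count by the width in the files and by a library total, Fos averaged 13.0 ± 4.29 in CreER-positive mice and 12.9 ± 4.06 in controls (SD, n = 3 each). Junb averaged 11.5 ± 2.46 RPKM in CreER-positive mice and 11.5 ± 1.15 in controls, and Egr1 10.1 ± 3.44 and 10.5 ± 2.45 RPKM in the same order. The ranges of these 3 genes overlapped over the 6 libraries. Nr4a1 came next, with 1.26 to 1.77 RPKM over the 6 libraries. Fosb (0.392 to 1.71), Egr3 (0.786 to 1.09), Nr4a2 (0.675 to 0.882) and Arc (0.600 to 0.860) followed with overlapping ranges. Npas4 (0.0471 to 0.113 RPKM) and Nr4a3 (0.0163 to 0.0254 RPKM) were lowest and did not overlap with any other of the 10.

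The width includes introns, and annotated exons make up 13.0% of it for Nr4a1, 13.7% for Nr4a3, 20.6% for Npas4 and 21.8% for Nr4a2, against 98.3% for Junb. Per kilobase of GENCODE exon, Fos still stood highest, at 20.4 ± 6.53 CPM in CreER-positive mice and 20.1 ± 6.27 CPM in controls. On that scale Nr4a1 stood beside Junb: Nr4a1 had 11.1 ± 1.42 CPM per kilobase in CreER-positive mice and 12.1 ± 1.17 in controls, and Junb 11.6 ± 2.29 and 11.4 ± 1.11 in the same order. Egr1 had 8.37 ± 2.71 CPM per kilobase in CreER-positive mice and 8.58 ± 1.96 in controls. Npas4 had 0.304 ± 0.0697 and 0.483 ± 0.0895, and Nr4a3 0.148 ± 0.0361 and 0.178 ± 0.00218 CPM per kilobase in the same order. On both scales these 2 genes were the lowest. The exon scale divides the whole count by exon length, so any counted reads in introns would raise genes with a small exon share. Whether such reads were counted is not known. For Egr1 the annotated exons come to 119.6% of the width, so the exon scale lowers it.

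The within-group SD of log2 CPM was larger than the size of the log2 fold change for 8 of the 10 genes, all but Nr4a3 and Npas4. The highest library exceeded the lowest 4.35-fold for Fosb, 2.06-fold for Fos, 2.05-fold for Egr1 and 1.48-fold for Junb. For the other 6 the ratio lay between 1.26 for Nr4a2 and 2.33 for Npas4. That SD was 0.89 for Fosb, 0.49 for Fos, 0.43 for Egr1 and 0.24 for Junb. Among the 13526 tested genes that averaged 5 CPM or more, these stood at percentiles 99.9, 99.6, 99.3 and 96.2 of within-group SD. Nr4a1 stood at percentile 88.6 and Nr4a2 at 77.3. The remaining 4 genes have lower counts, where counting error adds to the spread, and were not ranked.

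**Figure D3:**
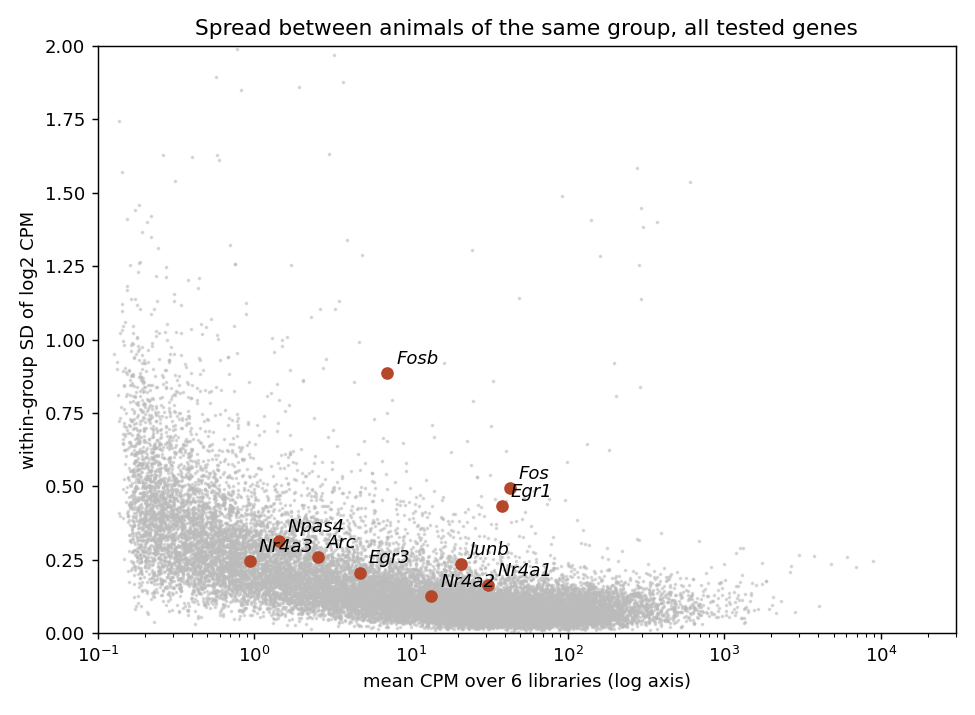
Within-group SD of log2 CPM (y axis) against mean CPM over the 6 libraries (log x axis) for all tested genes (grey; 6 genes above an SD of 2 are not shown), with the 10 immediate early genes in red. Fosb, Fos and Egr1 stand above nearly all tested genes that average 5 CPM or more, with SDs of 0.89, 0.49 and 0.43.

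Fos, Fosb and Egr1, the most variable of the ranked genes, shared their lowest library within each group, though Egr1 in controls only narrowly. Egr1 had 33.1 CPM in control replicate 1 and 33.8 CPM in control replicate 3. CreER-positive replicate 1 had the lowest value within its group, and control replicate 1 within its own, for Fos, Fosb, Junb, Egr1 and Nr4a1, that is for 5 of the 10 genes, against 9.13% of all tested genes. This pattern was noticed in the values, and genes that rise together are not independent, so it is a description. CreER-positive replicate 1 was the lowest of all 6 libraries for 6 genes, Fos, Junb, Egr1, Nr4a1, Nr4a2 and Npas4. Control replicate 2 was the highest for 4 genes, Fos, Fosb, Egr1 and Nr4a1, and lay above the gene's mean for all 10. The other 5 genes had other orders. Egr3, Nr4a2 and Npas4 were highest of all 6 libraries in control replicate 1, Arc was lowest there, and Nr4a3 was highest in CreER-positive replicate 1.

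Some other measures had replicate 1 lowest in both groups, and others did not. Endothelial markers summed to 132.5 CPM in CreER-positive replicate 1 against 157.4 and 201.2 CPM in replicates 2 and 3, and to 139.6 CPM in control replicate 1 against 149.4 and 155.3 CPM. Schwann cell markers (4370 and 4417 CPM) and satellite glia markers (2334 and 2211 CPM) were also lowest within their groups in replicate 1 of CreER-positive mice and of controls. These are sums, and not every marker had that order. Gene by gene, replicate 1 was lowest in both groups for 5 of 8 endothelial markers. The same held for 4 of 8 Schwann cell and 3 of 8 satellite glia markers, against 9.13% of all tested genes. Sensory neuron markers were lowest in neither replicate 1, at 12960 CPM in CreER-positive replicate 1 and 10960 CPM in control replicate 1. Macrophage (102.5 CPM) and fibroblast (1163 CPM) markers were the highest of the control group in control replicate 1. Control replicate 2, the highest for Fos and Fosb, was the library with the muscle transcripts. Control replicate 1 had the fewest counts, 40237131, while CreER-positive replicate 1 had 61291709. The animal numbers in the labels are 1365 for CreER-positive replicate 1 and 1364 for control replicate 1, the lowest 2 of the 6, and the labels name no batch. The part of each in the result was not tested. The replicate numbers follow the accession order and do not pair animals.

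**Figure D4:**
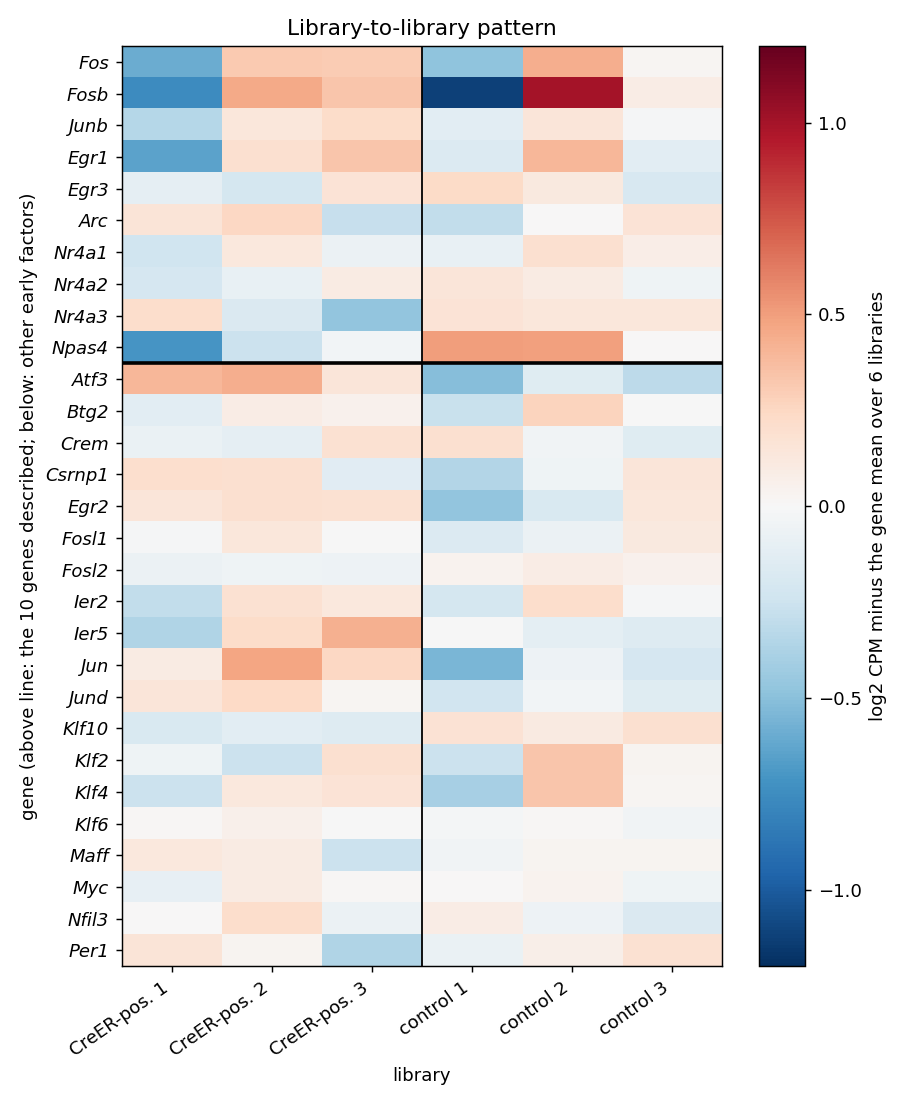
Log2 CPM of each gene minus its mean over the 6 libraries (colour), for the 10 immediate early genes above the line and 19 other immediate early transcription factor genes below it, with the 3 CreER-positive libraries left of the 3 control libraries. The blue of Fos, Fosb and Egr1 in replicate 1 of both groups recurs in Ier2, Btg2 and Klf4. For Egr1 it is faint in control replicate 1 (-0.16, beside -0.13 in control replicate 3). Jun and Atf3 are higher in all 3 CreER-positive libraries.

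Among genes that were no members and averaged 5 CPM or more, the 5 with the profile most like the mean profile of the members were Ddn, Fat1, Smox, Vcl and Sema4c. Likeness was the root mean square distance between standardized log2 profiles over the 6 libraries (0.157 for Ddn to 0.222 for Sema4c), taken among 13016 genes against the mean of the 9 members with at least 1 CPM. Ddn, which encodes the postsynaptic protein dendrin, had 22.4, 25.8 and 27.2 CPM in CreER-positive mice, against 24.6, 28.1 and 25.1 CPM in controls. Vcl, which encodes the adhesion protein vinculin, had 124.5, 132.5 and 133.4 CPM in CreER-positive mice, against 129.8, 134.4 and 131.7 CPM in controls. The 5 genes were picked for this likeness, and they varied far less between libraries than Fos. Their order of libraries was not that of Fos throughout. Ddn and Vcl were higher in CreER-positive replicate 3 than in replicate 2, and Fos was slightly lower. Among the members the distance to the mean profile was smallest for Egr1, at 0.226, and largest for Nr4a3, at 1.53. Nr4a3 was the member left out of that mean, while Egr1 was part of it, so the distances are not on an equal footing.

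Outside the 10 genes, 98 tested genes in 5 related lists were read from the same fit, and 2 of them passed, both lower in CreER-positive ganglia. Over all tested genes 0.563% were called lower and 0.163% higher. The first was Dusp5, a feedback gene for a nuclear phosphatase that inactivates ERK. It fell to 10.7, 10.4 and 10.04 CPM in CreER-positive mice, against 16.1, 17.3 and 17.4 CPM in controls. The groups stood well apart, with means of 10.4 ± 0.327 CPM in CreER-positive mice and 17.0 ± 0.734 CPM in controls (SD, n = 3 each). The log2 fold change was -0.71 ± 0.07 (edgeR adjusted p 0.00224), and the call held without any 1 library (adjusted p up to 0.0233).

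The second was Klf10, a Krüppel-like factor gene induced by TGF-beta. It fell to 18.7, 19.4 and 19.1 CPM in CreER-positive mice, against 24.1, 23.0 and 24.3 CPM in controls. Its log2 fold change was -0.32 ± 0.06 (edgeR adjusted p 0.0451). Klf10 overlaps the predicted gene Gm35248, and reads there cannot be assigned to 1 of them. The call ended without control replicate 1 (0.224), 2 (0.163) or 3 (0.199) and without CreER-positive replicate 1 (0.166) or 2 (0.0952). The 2 calls in the 5 lists became 4 without CreER-positive replicate 1, 6 without CreER-positive replicate 3 and 1 without any other single library. Over all tested genes, the 160 calls became 139 without CreER-positive replicate 1 and 568 without CreER-positive replicate 3. Without any other single library they numbered 60 to 143. Mural cell markers summed to 208.3, 213.6 and 219.3 CPM in CreER-positive mice, against 251, 248.1 and 230.2 CPM in controls. The groups did not overlap in this sum. Most of its genes did not fall: 5 of the 7 mural markers had estimates above 0 and 2 below, with a median log2 fold change of 0.12. Rgs5, a pericyte gene that makes up most of that sum, fell by 0.41 on the log2 scale (edgeR adjusted p 0.0293), and 0 of the other 6 mural markers was called by edgeR, DESeq2 or limma-voom. Of these 6, Pdgfrb had an unadjusted edgeR p under 0.05, with a log2 fold change of 0.20. The part of these cells in the Dusp5 and Klf10 values was not tested.

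Of 19 tested immediate early transcription factor genes beyond the 10, Klf10 was the single edgeR call. The list had 11 estimates above 0 and 8 below, with a median log2 fold change of 0.01. DESeq2 called 4 of the 19, against 2.27% of the genes it tested. An unadjusted edgeR p under 0.05 was reached by 5, against 10.6% of all tested genes. The groups did not overlap for 6, against 15.9% of all tested genes. Atf3, a stress- and injury-induced factor, had 8.17, 8.40 and 6.88 CPM in CreER-positive mice, against 4.35, 5.62 and 4.98 CPM in controls (log2 fold change 0.64 ± 0.12, edgeR adjusted p 0.0523). Jun, the AP-1 partner of Fos, had 89.7, 117 and 99.6 CPM in CreER-positive mice, against 57.4, 80.4 and 72.9 CPM in controls. Its log2 fold change was 0.54 ± 0.13 (edgeR adjusted p 0.127). For both genes every CreER-positive value lay above every control value, as for 6.63% of all tested genes, and DESeq2 called both (adjusted p 4.87e-04 and 9.35e-04). Egr4 did not pass the filter on low counts.

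Of 21 activity-induced effector genes edgeR called 0, while 6 were under 0.05 before adjustment, against 10.6% of all tested genes. DESeq2 called 3 of the 21, against 2.27% of the genes it tested. The groups did not overlap for 8 of the 21, against 15.9% of all tested genes. Bdnf, which encodes brain-derived neurotrophic factor, had 40.8, 50.4 and 48.9 CPM in CreER-positive mice, against 36.1, 28.1 and 33.1 CPM in controls (log2 fold change 0.53 ± 0.10, edgeR adjusted p 0.0659). Vgf, a secreted neuropeptide precursor gene, had 55.5, 73.1 and 79.3 CPM in CreER-positive mice, against 50.3, 45.8 and 49.1 CPM in controls (0.52 ± 0.11, edgeR adjusted p 0.0983). Gadd45g, a growth arrest and DNA damage-inducible gene, had a log2 fold change of 0.38 ± 0.10 (edgeR adjusted p 0.191). Bdnf, Vgf and Gadd45g were among the genes without overlap, and all 3 passed by edgeR without CreER-positive replicate 1. The list's median was -0.04, with 8 estimates above 0 and 13 below.

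Of 16 feedback inhibitor genes Dusp5 was the single edgeR call, against 0.726% of all tested genes, and the median log2 fold change was 0.02. Dusp1, a phosphatase gene of the same family, had a log2 fold change of 0.21 ± 0.09 (edgeR adjusted p 0.483), and Nab1, a corepressor gene of Egr proteins, -0.18 ± 0.06 (0.248). Of 37 upstream genes, which encode CREB, SRF, their coactivators, kinases and calcium channels, edgeR called 0 and DESeq2 called 1. The shares over all the genes each tested were 0.726% and 2.27%. An unadjusted edgeR p under 0.05 was reached by 1 upstream gene, against 10.6% of all tested genes. That gene was Camk2d, which encodes a calcium/calmodulin-dependent kinase subunit (0.19 ± 0.06, edgeR adjusted p 0.248). Rps6ka1 and Cacna1d had log2 fold changes of 0.14 and -0.11. These 3 genes also overlap other annotated genes, while the 10 immediate early genes overlap none in RefSeq. The median of the upstream list was 0.00. The dimer partner genes Rxra, Rxrb, Rxrg, Arnt and Arnt2 had log2 fold changes between -0.06 and 0.11, with 0 of 5 called by edgeR or DESeq2 and 0 with an unadjusted p under 0.05.

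Replicate 1 was lowest in both groups for 7 of the 19 other transcription factor genes, 4 of 16 feedback genes, 3 of 21 effector genes, 1 of 37 upstream genes and 0 of 5 partner genes, again against 9.13% of all tested genes. The transcription factor genes in that order were Jun, Egr2, Fosl1, Fosl2, Btg2, Ier2 and Klf4. The count takes no account of the margin, which was very small for Fosl2. Fosl2 had 11.59, 11.73 and 11.65 CPM in CreER-positive mice, against 12.52, 12.87 and 12.54 CPM in controls. Zfp36, whose protein destabilizes short-lived mRNAs, had 16.2, 21.2 and 22.2 CPM in CreER-positive mice, against 16.7, 25.1 and 19.7 CPM in controls. Ccn1, a matricellular protein gene, had 5.02, 8.69 and 10.1 CPM in CreER-positive mice, against 6.49, 10.3 and 8.35 CPM in controls. Apart from Jun, the genes of this paragraph were named after their values were seen.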

How the data were processed

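Each of 6 libraries came from 1 mouse, and samples were grouped by the genotype label. The submitters' processing notes name GSNAP as the aligner and GRCm38 (mm10) as the genome. How reads were assigned to genes, including strand, is not given in the sources used here. The authors deposited a raw count, a width and an RPKM value per NCBI gene, per the file headers, and the deposited RPKM equals the count over the width, scaled to a library total. RPKM entered no test. Depth and counting error limit low genes, and intervals on counts cover counting error only.

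Symbols came from RefSeq (GRCm38.p6): 31049 genes matched and 5479 did not, holding 1.91% of counts. Genes were filtered with filterByExpr, scaled with TMM factors and tested with edgeR 4.0.16 (glmQLFit with legacy = FALSE, glmQLFTest; R 4.3.3), with Benjamini-Hochberg adjustment at 0.05. Log2 CPM had a prior count of 0.5. The standard error is the log2 fold change divided by the square root of F. The step was tested on simulated data. No 2 libraries of a group looked like copies. Their chi-square per degree of freedom was 6.02 to 9.02 between controls and 35.4 to 43.9 between CreER-positive libraries, which differed more from each other. Alternatives were other scalings and filters, DESeq2 1.42.0, limma-voom (limma 3.58.1) and leaving out libraries.

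The members and the lists were chosen with earlier results of these data known. Named were all members, the 3 genes with the smallest p and any called gene in each related list, and the 5 nearest profiles. Exons came from GENCODE M21. Figures were drawn with matplotlib 3.10.9.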

Additional observations from a re-analysis of the deposited data

How the results depend on the processing

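None of the 10 genes was called under any of the 16 alternatives, of which the legacy and the robust quasi-likelihood settings were chosen after seeing the data. The median log2 fold change of the 10 genes ranged from -0.16 to 0.02 when 1 library was left out. Calls in the related lists numbered 2 with all libraries, 9 with DESeq2, and 1 to 6 when 1 library was left out. Over all genes, the 160 calls became 60 without control replicate 2, 71 without control replicate 1, 73 without control replicate 3 and 568 without CreER-positive replicate 3. They numbered 420 with DESeq2, 139 without CreER-positive replicate 1 and 143 without CreER-positive replicate 2.

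Signs turned in fits in which none of the 10 genes passed. Fos turned with limma-voom (-0.0047), and it ranged from -0.18 to 0.27 when 1 library was left out. Junb turned with total counts alone (-0.0021), limma-voom (-0.0086) and without both control replicate 2 and CreER-positive replicate 3 (-0.013), and it ranged from -0.090 to 0.17 when 1 library was left out. Fosb turned without those 2 libraries (0.34), and it ranged from -0.51 to 0.47 when 1 was left out. The ranges were -0.22 to 0.21 for Egr1, -0.028 to 0.22 for Arc and -0.086 to 0.0049 for Scn9a. Egr3, Nr4a1, Nr4a2, Nr4a3 and Npas4 kept a negative sign in all 16 alternatives, and Npas4 ranged from -0.82 to -0.48. Klf10 also lost its call with no count filter (adjusted p 0.0785) and without both libraries (0.0900). Atf3 passed with no count filter (0.0417), with robust settings (0.0373), without CreER-positive replicate 3 (0.0154) and without both (0.0287). The cause was not tested. The count of 5 genes with replicate 1 lowest in both groups was 5 under each of the 7 alternatives that kept 6 libraries and gave CPM. No paired analysis was possible because the labels number no replicates across groups. Npas4 and Nr4a3 rest on 35 to 107 counts per library, and depth limits them most.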
